A study of Mus musculus with 24 samples.

Results

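The genes described here are 10 of the 55536 in the deposited read-count table: the constant regions of the antibody heavy chains of IgA (*Igha*), IgM (*Ighm*), IgD (*Ighd*) and 4 IgG subclasses (*Ighg1*, *Ighg2b*, *Ighg2c* and *Ighg3*), those of the kappa (*Igkc*) and one lambda (*Iglc2*) light chain, and *Jchain*, the joining chain. They were chosen by gene symbol and not by a limit on their values, though earlier results of these data were known. The tissue was the distal small intestine (ileum) of 24 C57BL/6N mice, for which the labels name no engineered allele. Mice were 4 to 5 weeks old at the start and received either a control diet with 10% of its energy from fat (CD) or a high-fat diet with 60% (HFD) for 20 weeks, and kept that diet while 1 group on each diet drank water with metformin, 50 mg/kg of body mass a day, for a further 10 weeks (CDmetf and HFDmetf). Each of the 4 groups held 3 males (M1 to M3) and 3 females (F1 to F3), each from a different cage, with 1 bulk RNA library per animal. The study compared HFD with CD and HFDmetf with CDmetf for diet, and HFDmetf with HFD and CDmetf with CD for metformin.

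A B cell builds each antibody from paired identical heavy and light chains, and the constant region of the heavy chain sets the antibody's class. Naive B cells make IgM and IgD from a shared primary transcript by alternative splicing. Class switching removes both constant regions and the DNA up to a downstream constant gene. The cell then makes IgG, IgE or IgA with the same variable region. The gut wall is the main site of IgA production: plasma cells beneath the epithelium secrete IgA as dimers held together by the J chain, and the epithelial receptor encoded by *Pigr* carries them into the lumen.

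All 7 heavy-chain genes lie on the minus strand of chromosome 12, in the GRCm38 build, in the order *Ighm* (chr12:113418558-113422730), *Ighd* (chr12:113406604-113416324), *Ighg3* (chr12:113356224-113361232), *Ighg1* (chr12:113325240-113330523), *Ighg2b* (chr12:113302965-113307933), *Ighg2c* (chr12:113285325-113288932) and *Igha* (chr12:113254830-113260236). *Igkc* is on the plus strand of chromosome 6 (chr6:70726435-70726966), *Iglc2* on the minus strand of chromosome 16 (chr16:19198396-19200351) and *Jchain* on the minus strand of chromosome 5 (chr5:88519809-88527891). The end of the coding sequence of each secreted heavy chain is shown because it carries the feature that divides the classes by their partner. IgA and IgM end in a tail whose cysteine binds the J chain, and IgD and IgG do not. Each line gives the last 60 coding bases in exon sequence, stop codon included, 5′ to 3′ on the minus strand from the GENCODE M21 transcripts, and capitals mark the codon of the amino acid before the last.
Igha (chr12:113258768-113258827): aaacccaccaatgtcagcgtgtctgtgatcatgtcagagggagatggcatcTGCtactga
Ighm (chr12:113420867-113420926): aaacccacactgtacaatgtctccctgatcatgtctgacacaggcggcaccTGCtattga
Ighd (chr12:113409578-113409637): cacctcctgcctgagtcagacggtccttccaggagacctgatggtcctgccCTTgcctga
Ighg1 (chr12:113328976-113329035): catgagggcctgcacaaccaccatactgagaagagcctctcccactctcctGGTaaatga
Ighg2b (chr12:113306389-113306448): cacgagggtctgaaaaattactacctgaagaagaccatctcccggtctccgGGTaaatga
Ighg2c (chr12:113287389-113287448): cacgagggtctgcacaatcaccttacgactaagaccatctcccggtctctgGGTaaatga
Ighg3 (chr12:113359665-113359724): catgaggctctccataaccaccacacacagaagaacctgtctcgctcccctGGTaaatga
The marked codon was a cysteine codon in *Igha* and *Ighm* and in none of the other heavy chains. The IgG subclasses resemble each other, so the reads they could share were counted: 13.4% of the 30-base windows of the secreted *Ighg2b* transcript and 12.3% of those of *Ighg2c* also occurred in an annotated transcript of another gene, on either strand, against 2.85% for *Ighg3*, 0.955% for *Ighg1* and 0 for *Igha*, *Ighm*, *Ighd*, *Igkc* and *Jchain*. No 100-base window, the length of 1 sequenced read, was shared by any of the 10 genes. Among annotated transcripts, reads trimmed to near the 30-base minimum could therefore fit another gene only for the IgG subclasses and *Iglc2*. The deposited table counts reads that mapped to several places apart from genes.

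Reads on genes ranged from 1829690 in HFDmetf F2 to 40606442 in HFD F1 with a median of 3467308, and values below are CPM, the usual unit of reads relative to a library's gene reads, with that total scaled by the trimmed mean of M-values. In CD M3, 10 genes took 85.4% of the gene reads, against 9.22% to 36.6% in the other libraries. The library labelled HFD M2 had *Xist* at 1097 CPM and no read on 4 Y-linked genes, the library labelled HFD F2 had *Xist* at 0.425 CPM and those genes at 180 CPM in sum, and the other 22 libraries had the transcripts of their labelled sex. *Fabp6*, the bile acid binding protein that defines ileal epithelium, was between 0.816 CPM (2 reads, in HFD M3) and 2647 CPM (CDmetf F2), with a median of 1000 CPM.

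The transcripts of dimeric IgA, namely *Igha*, *Igkc* and *Jchain*, were by far the most abundant. *Igha* was read in every library at between 675 (CDmetf M2) and 2899 CPM (CDmetf F1) with a median of 1576 CPM, *Igkc* at between 866 (CDmetf M2) and 3908 CPM (HFD F2) with a median of 1682 CPM, and *Jchain* at between 150 (CDmetf M2) and 621 CPM (CDmetf M3) with a median of 407 CPM. The highest library exceeded the lowest by 4.29-fold for *Igha*, 4.51-fold for *Igkc* and 4.14-fold for *Jchain*, far less than for the other constant genes: 16.02-fold for *Iglc2*, 52.1-fold for *Ighm* and 149-fold for *Ighg2b*. Levels per kilobase of exon, taken over all annotated transcripts of a gene, compare genes only roughly. That length was 2668 bases for *Igha*, 532 for *Igkc*, 2592 for *Ighg1* and 1326 for *Ighg2c*. The transcripts used above for shared windows have 1100, 532, 1076 and 1111 bases, so close neighbours can change order with the length used. The median CPM per kilobase was 3161 for *Igkc*, 591 for *Igha*, 162 for *Jchain*, 17.2 for *Ighm* and 15.2 for *Iglc2*. It was 1.87 for *Ighg2b*, 1.53 for *Ighd*, 0.710 for *Ighg2c*, 0.542 for *Ighg1* and 0.497 for *Ighg3*. On this scale, *Igkc* exceeded *Igha*, *Igha* exceeded *Jchain*, and *Jchain* exceeded *Ighm* in 24 of 24 libraries each. *Iglc2* exceeded *Ighg2b* in 22 libraries and *Ighd* exceeded *Ighg2c* in 17, while the neighbours *Ighm* and *Iglc2*, *Ighg2c* and *Ighg1*, and *Ighg1* and *Ighg3* kept their order in only 13 of 24 libraries and were not separated beyond the spread between libraries. The 4 rarest were measured with few reads: *Ighd* had under 3 reads in 3 libraries, *Ighg1* in 5, *Ighg2c* in 6 and *Ighg3* in 6.

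**Figure D1:**
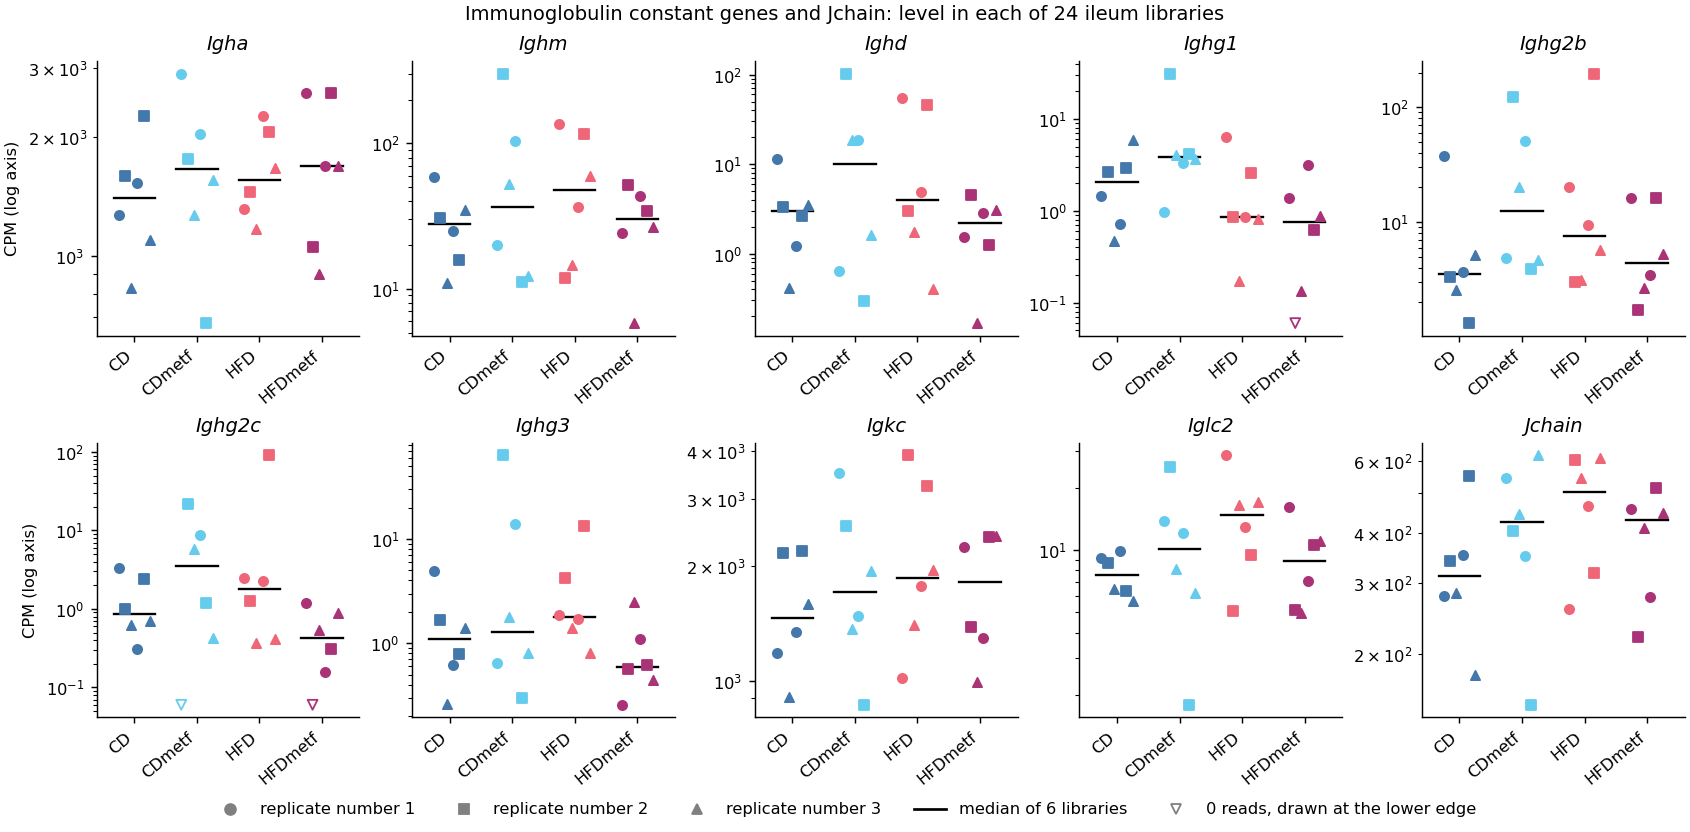
Level of each of the 10 genes (CPM, log axis) in each of the 24 libraries by group, with the replicate number 1, 2 or 3 drawn as a circle, square or triangle and the median of 6 libraries as a black line; open triangles at the lower edge are libraries with 0 reads. *Igha*, *Igkc* and *Jchain* lie in narrow bands in all 4 groups, whereas *Ighm*, *Ighd* and the IgG genes spread more widely, with CDmetf F2 highest for *Ighm*, *Ighd*, *Ighg1* and *Ighg3* and HFD M2 for *Ighg2b* and *Ighg2c*.

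No difference in the IgA transcript between groups passed the test. *Igha* ranged from 829 to 2260 CPM in CD with a median of 1403, from 675 to 2899 CPM in CDmetf with a median of 1658, from 1168 to 2259 CPM in HFD with a median of 1560, and from 902 to 2586 CPM in HFDmetf with a median of 1688. The ranges of all 4 groups overlapped. The log2 difference was 0.22 (SE 0.28) for HFD against CD, -0.0011 (SE 0.28) for HFDmetf against CDmetf, 0.06 (SE 0.28) for HFDmetf against HFD and 0.28 (SE 0.29) for CDmetf against CD. In edgeR's quasi-likelihood test across 13505 genes, the Benjamini-Hochberg adjusted p of *Igha* was 0.999, 0.999, 0.954 and 0.992 in that order, and *Igha* was higher in the first group in 4, 2, 3 and 5 of the 6 pairs matched for labelled sex and number. The diet difference did not depend detectably on metformin either (interaction -0.23, SE 0.40, adjusted p = 0.918 in edgeR). *Igkc*, which pairs with heavy chains of every class, was at 1563 ± 523 CPM in CD, 1953 ± 949 CPM in CDmetf, 2215 ± 1119 CPM in HFD and 1785 ± 629 CPM in HFDmetf (SD, n = 6 each). *Jchain* was at 331 ± 124, 420 ± 164, 467 ± 149 and 388 ± 114 CPM in the same order. Both genes were 0.47 higher on the log2 scale in HFD than in CD (SE 0.34 for *Igkc* and 0.31 for *Jchain*, adjusted p = 0.999 in edgeR for both), and the other 3 comparisons gave differences between -0.26 and 0.40.

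IgA also dominated when the heavy chains were compared with each other within a library. Of the reads on the 7 heavy-chain genes, between 1954 and 65596 per library and 423550 in all, *Igha* took a median of 97.5%, and over 95% in 17 of 24 libraries. Its share was lowest in CDmetf F2 at 73.2% (95% Wilson interval 72.2 to 74.1, counting error only), followed by HFD M2 at 81.6% (80.7 to 82.4) and HFD F1 at 85.6% (85.3 to 85.8), and highest in CDmetf F1 at 99.1% (98.9 to 99.3). These 3 low libraries came from CDmetf and HFD, both of which also held libraries with a share above 95%. IgM came second in most libraries: it exceeded the summed IgG subclasses in 22 of 24, and IgG exceeded IgD in 22 of 24. The group means for IgA were 96.6% ± 2.72 in CD, 91.9% ± 9.73 in CDmetf, 92.9% ± 7.37 in HFD and 97.4% ± 1.45 in HFDmetf (SD, n = 6 each). Counted per kilobase of exon over all annotated transcripts, the share of IgA ran from 67.7% to 98.8% with a median of 96.6%. That length was 2668 bases for *Igha* and 1886 for *Ighm*, whereas their secreted transcripts have 1100 and 1493 bases. The lower share thus depends on the length used.

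**Figure D2:**
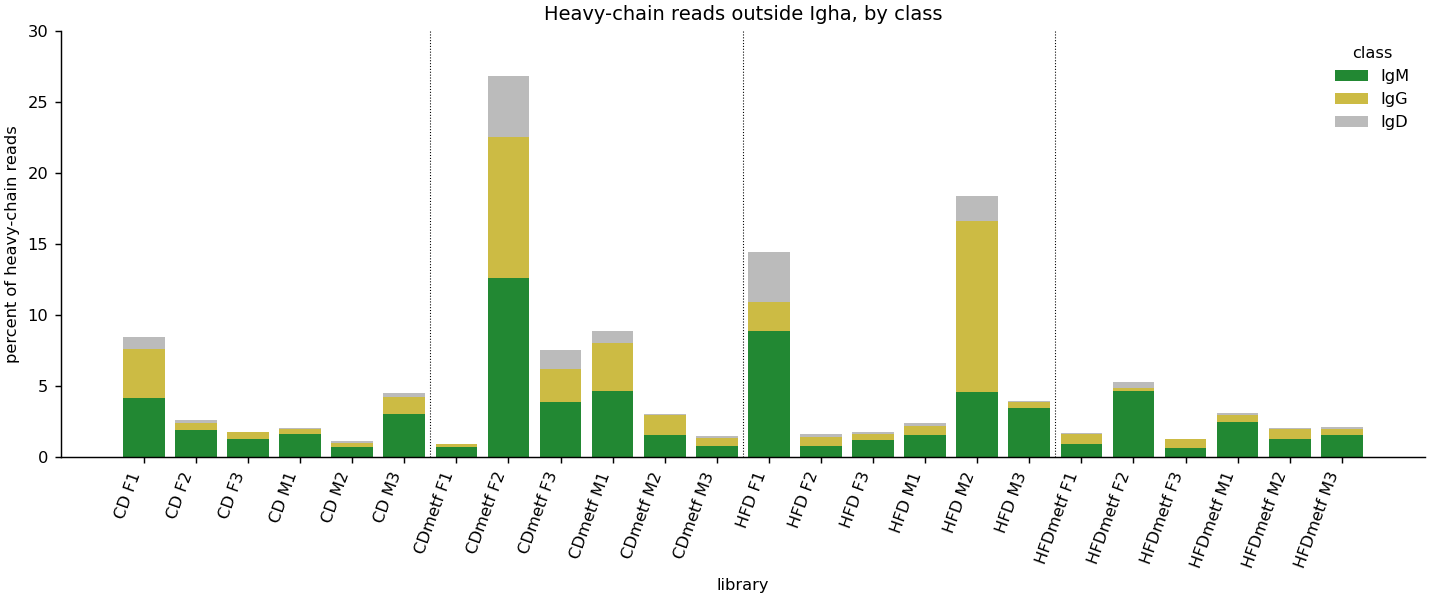
Percent of heavy-chain reads taken by IgM, IgG and IgD, stacked, in each library, with the remainder up to 100% being IgA; the axis runs from 0 to 30%. CDmetf F2, HFD M2 and HFD F1 stand highest, and in HFDmetf the highest bar is that of F2, where IgA held 94.7%.

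No difference between groups in the 7 make-up measures passed the test. Measured were the shares of IgA, IgM, IgD and IgG, the kappa share of light-chain reads, the log2 ratio of *Jchain* to *Igha* and the log2 summed heavy-chain CPM. Groups were compared by an exact two-sided permutation test within replicate numbers, over 28 combinations of measure and comparison. The smallest p was 0.0741, for the IgG share in HFDmetf against CDmetf, which was lower by 2.47 percentage points (-2.47, SE 1.48) and higher in HFDmetf in 1 of 6 pairs; the exact permutation p adjusted over the 28 was 0.591. The IgA share differed by -3.68 percentage points for HFD against CD (exact permutation p = 0.370), 5.52 points for HFDmetf against CDmetf (0.194), 4.51 points for HFDmetf against HFD (0.269) and -4.69 points for CDmetf against CD (0.361). Without CDmetf F2 the second became 1.78 and the last -0.95 points, and the IgG difference above became -1.07. Without HFD M2 the first became -1.42 and the third 2.25 points, and without HFD F1 the first became -2.21. The IgM and IgD differences likewise shrank by over 1.5 times without CDmetf F2 or HFD F1, to between -0.41 and 0.21 points. The smallest p this design allows is 0.00926, which for a lone measure cannot pass the adjustment over 28. The summed heavy-chain CPM had group means on the log2 scale of 10.46 in CD, 10.73 in CDmetf, 10.76 in HFD and 10.70 in HFDmetf.

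IgM and IgD are the classes of B cells that have not switched, and both were low in most libraries and high in a few. *Ighd* ranged from 0.416 to 11.4 CPM in CD with a median of 2.99, from 0.299 to 103 CPM in CDmetf with a median of 10.1, from 0.408 to 54.4 CPM in HFD with a median of 3.93, and from 0.168 to 4.56 CPM in HFDmetf with a median of 2.20. All 4 ranges shared their lower ends, and the groups differed in their highest libraries: 103 CPM in CDmetf F2, 54.4 CPM in HFD F1, 45.5 CPM in HFD M2, and no HFDmetf library above 4.56 CPM. *Ighm* behaved likewise, with 10.9 to 58.3 CPM in CD (median 27.9), 11.0 to 302 CPM in CDmetf (median 36.4), 11.9 to 136 CPM in HFD (median 48.1) and 5.80 to 51.8 CPM in HFDmetf (median 30.3). The 2 transcripts did not keep a fixed ratio: in the 21 libraries with at least 3 *Ighd* reads, there were between 2.51 (HFD F1) and 34.6 (HFDmetf F3) *Ighm* reads per *Ighd* read. The median ratio was 9.57 in CD, 4.26 in CDmetf, 4.00 in HFD and 15.5 in HFDmetf. The range was 5.10 to 26.1 in 6 CD libraries and 2.85 to 7.52 in 4 CDmetf libraries. It was 2.51 to 8.45 in 5 HFD libraries and 8.57 to 34.6 in 6 HFDmetf libraries. The limit of 3 reads left out CDmetf F1 (62 *Ighm* and 2 *Ighd* reads), CDmetf M2 (37 and 1) and HFD M3 (147 and 1). The medians and ranges of CDmetf and HFD therefore lack their highest ratios, and no order of the groups follows from them. The ratio was picked out with its values known, and its difference between groups was not tested.

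The IgG subclasses, which follow IgM and IgD in the locus, made up more than 2% of heavy-chain reads in 6 libraries and less in the other 18. The share was 11.99% in HFD M2 (95% Wilson interval 11.3 to 12.7), 9.97% in CDmetf F2 (9.33 to 10.6), 3.43% in CD F1, 3.42% in CDmetf M1, 2.33% in CDmetf F3 and 2.01% in HFD F1, and the highest HFDmetf library reached 0.722%. *Ighg2b* was the main subclass, with 63.2% of all 6695 IgG reads and the largest count in 20 of 24 libraries, ahead of *Ighg2c* (13.2%), *Ighg1* (12.5%) and *Ighg3* (11.1%). The 2 libraries richest in IgG differed in subclass: in HFD M2, *Ighg2b* took 64.7% and *Ighg2c* 29.99% of IgG reads with *Ighg1* at 0.863%, and in CDmetf F2 *Ighg2b* took 51.3%, *Ighg3* 26.5% and *Ighg1* 13.1%. *Ighg2b* ranged from 1.32 to 37.8 CPM in CD, 3.88 to 123 CPM in CDmetf, 2.98 to 196 CPM in HFD and 1.71 to 16.2 CPM in HFDmetf, with medians of 3.51, 12.6, 7.60 and 4.38 CPM. In HFD, the second highest library was at 20.0 CPM, so the top of the range was HFD M2 alone. *Ighg1* ranged from 0.468 to 5.88 CPM in CD, 0.969 to 31.3 CPM in CDmetf, 0.170 to 6.43 CPM in HFD and 0 to 3.16 CPM in HFDmetf. Its medians were 2.05, 3.89, 0.857 and 0.752 CPM, and the ranges of the groups overlapped. *Ighg2c* reached 3.35 CPM in CD, 21.7 in CDmetf, 90.9 in HFD (M2, with the next library at 2.48) and 1.20 in HFDmetf. *Ighg3* reached 4.95, 63.6 (F2), 13.4 and 2.52 CPM in the same order. The high values of both came from single libraries.

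The libraries richest in IgD and IgG were those richest in B cell transcripts, and those richest in IgM were largely the same. The summed level of 10 B cell markers, among them *Ms4a1*, *Cd79a*, *Cd22*, *Fcer2a*, *Cxcr5* and *Pax5*, which encode surface receptors, a signalling partner and a lineage factor, ran from 7.23 CPM in CD F3 to 433 CPM in CDmetf F2 with a median of 20.8 CPM. The 6 highest were CDmetf F2 (433), HFD F1 (336), HFD M2 (219), CDmetf M1 (158), CDmetf F3 (119) and CD F1 (76.2 CPM). The same 6 libraries had the highest *Ighd*, the highest IgG share and the lowest IgA share of the 24. For *Ighm* the first 4 places were the same, but CDmetf F3 came 7th, and HFD M3 had the fifth highest *Ighm* (59.9 CPM) with a B cell sum of 16.7 CPM. No HFDmetf library was among them, and the highest HFDmetf library reached 29.0 CPM. By group, the markers summed to 7.23 to 76.2 CPM in CD, 11.6 to 433 in CDmetf, 13.7 to 336 in HFD and 8.59 to 29.0 in HFDmetf. No marker was at 0 reads in all libraries, and 3 were at 0 in at least one. In bulk tissue, fewer cells of a type and less RNA per cell cannot be told apart, and the part of B cell content in the levels of *Ighm*, *Ighd* and the IgG genes was not tested.

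Over the 24 libraries, on the log2 scale, the B cell sum was correlated with *Ighd* at Pearson's r = 0.94 and Spearman's rho = 0.89 (p = 1e-05 each by permutation, the smallest that 100000 permutations can give, adjusted over 8 relations to 2.67e-05 for r and 8e-05 for rho). Without the 2 libraries farthest from the median, CDmetf F2 and HFD F1, r was 0.91, and within replicate numbers 1, 2 and 3 it was 0.96, 0.96 and 0.87. For *Ighm* r was 0.88 and rho 0.82, with r = 0.81 without those 2 libraries and 0.94, 0.93 and 0.70 within numbers. For the sum of the IgG genes r was 0.85 and rho 0.71, with r = 0.85 without them and 0.82, 0.88 and 0.91 within numbers. Within groups the IgG relation was r = 0.95 in CD, 0.96 in CDmetf and 0.82 in HFD, and -0.06 in HFDmetf, whereas *Ighd* gave 0.93 or more and *Ighm* 0.82 or more in all 4. *Igha* did not follow: r was 0.25 (permutation p = 0.230) and rho 0.41 (permutation p = 0.0491, adjusted 0.0561), with -0.44, 0.35 and 0.41 within numbers. These values share libraries and depth, since both measures come from the same reads. The sum of 10 plasma cell markers, among them *Mzb1*, *Sdc1* and *Xbp1*, spanned only 446 to 657 CPM and gave r = 0.40 with *Igha* (permutation p = 0.0534, adjusted 0.0712) and rho = 0.50 (permutation p = 0.0141, adjusted 0.0203). Within numbers 1, 2 and 3 this r was 0.59, 0.40 and 0.04. By group it was 0.73 in CD, 0.35 in CDmetf, 0.06 in HFD and 0.62 in HFDmetf. With *Jchain* the plasma cell sum gave r = 0.30 (permutation p = 0.155, adjusted 0.177). The part of plasma cells in this sum was not tested.

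**Figure D3:**
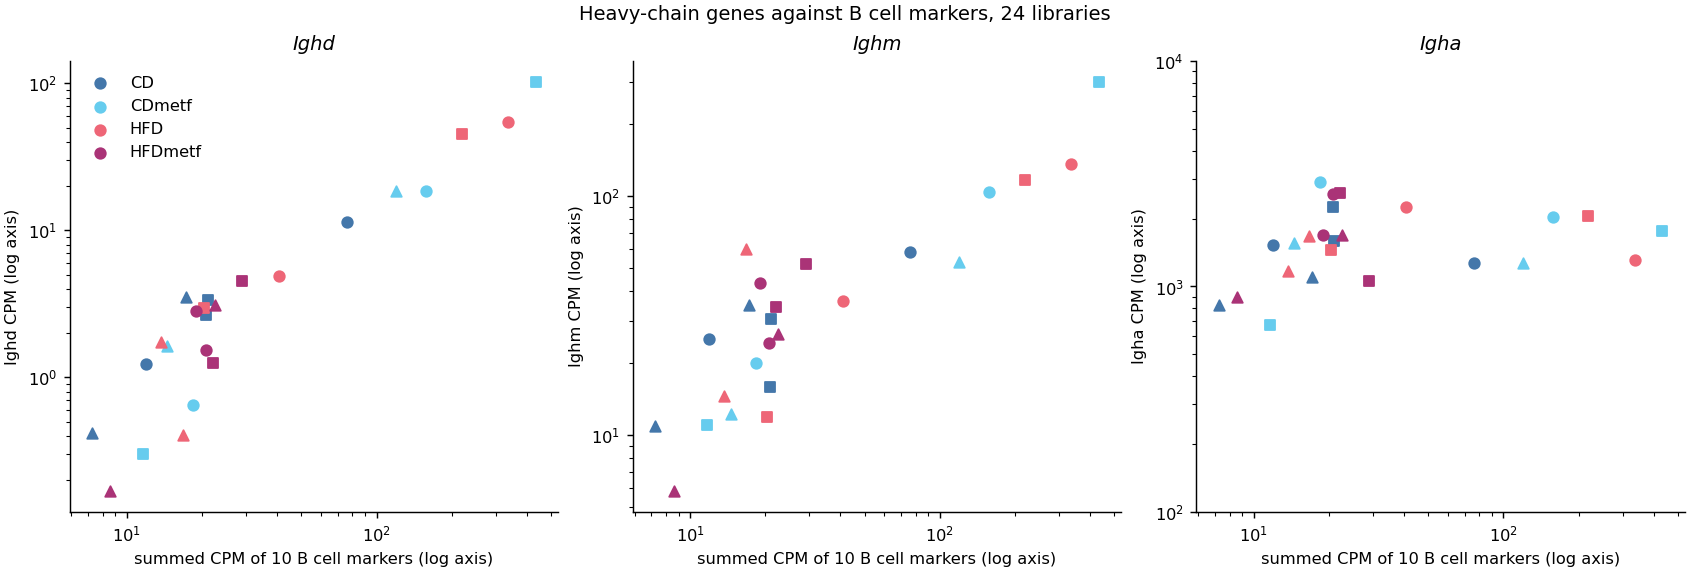
Level of *Ighd*, *Ighm* and *Igha* (CPM, log axes) against the summed level of 10 B cell markers (CPM) in the 24 libraries, with colour for the group and circle, square or triangle for replicate number 1, 2 or 3. *Ighd* and *Ighm* are higher in libraries with a higher B cell sum, which runs from 7.23 to 433 CPM, and *Igha* stays between 675 and 2899 CPM.

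Tested gene by gene, none of the constant genes or *Jchain* passed an adjusted p of 0.05 in any comparison, and few other genes did by any tool run here. The study itself reported genes under that limit in each of the 4 comparisons with limma-voom. Why its calls differ from those below was not tested. In edgeR's quasi-likelihood test, 13505 genes passed the filter on low counts, 8 of the 10 constant and joining chain genes among them. *Ighg2c* and *Ighg3* failed it. At an adjusted p under 0.05, 0% of the genes were called in each of the 4 comparisons, in the interaction and over the 4 groups, and 0.0074% between the sexes. DESeq2 called 12 genes for HFD against CD, 4 for CDmetf against CD, 4 in the interaction and 16 over the 4 groups, and limma-voom called 0 in the first 3 and 1 over the 4 groups, none of them a constant gene or *Jchain*. At an unadjusted p under 0.05, 4.59% of all genes stood out for HFD against CD and 1 of the 8, *Iglc2*. For HFDmetf against CDmetf the shares were 7.7% of all genes and 2 of the 8, *Ighd* and *Ighg1*. For HFDmetf against HFD they were 6.72% and 1 of the 8, *Ighd*, for CDmetf against CD 4.95% and 1 of the 8, *Ighd*, and over the 4 groups 5.41% and 2 of the 8, *Ighd* and *Ighg1*. These comparisons share their groups, and the 8 genes share their libraries, so the counts are not independent of each other.

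Of the 8 genes, *Ighd* had the widest fitted difference in edgeR in each of the 4 comparisons. It was 2.09 higher on the log2 scale in HFD than in CD (SE 1.04, adjusted p = 0.999 in edgeR) and 2.53 higher in CDmetf than in CD (SE 1.06, adjusted p = 0.963). With metformin the diet difference had the opposite sign, -3.58 for HFDmetf against CDmetf (SE 1.20, adjusted p = 0.559 in edgeR), and HFDmetf differed from HFD by -3.14 (SE 1.17, adjusted p = 0.631). The interaction, the diet difference with metformin minus that without it, was -5.67 (SE 1.57, adjusted p = 0.686 in edgeR). The direction was not shared by all pairs matched for labelled sex and number: *Ighd* was higher in the first group in 4 of 6 pairs for HFD against CD, 3 of 6 for HFDmetf against CDmetf, 2 of 6 for HFDmetf against HFD and 3 of 6 for CDmetf against CD. Within replicate numbers 1, 2 and 3, with 2 libraries against 2, the mean log2 CPM difference was 2.08, 1.95 and -0.51 for HFD against CD, -0.76, -1.33 and -2.66 for HFDmetf against CDmetf, -2.91, -2.25 and -0.08 for HFDmetf against HFD, and -0.07, 1.04 and 2.07 for CDmetf against CD. Leaving out 1 library at a time gave fitted differences of 1.13 (without HFD F1) to 2.71 for HFD against CD, where leaving out HFD M2 gave 1.25, -3.98 to -2.87 for HFDmetf against CDmetf, -3.62 to -2.24 for HFDmetf against HFD, 1.79 to 3.07 for CDmetf against CD and -6.26 to -4.66 for the interaction.

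The other IgM, IgG and lambda genes had interactions of the same sign. The value was -3.51 for *Ighg2b* (SE 1.47), -2.68 for *Ighg1* (SE 1.29), -2.40 for *Ighm* (SE 0.99) and -1.20 for *Iglc2* (SE 0.56), all with an adjusted p of 0.811 in edgeR. Single libraries carried much of these values: *Ighg1* became -0.95 without HFD F1, *Ighg2b* -2.06 without HFD M2, and *Ighm* -1.54 and *Iglc2* -0.69 without CDmetf F2. With *Ighd* these were 5 of the 8 at an unadjusted p under 0.05, against 5.83% of all genes, and the median of the 8 interactions was -1.80 beside 0.0318 over all genes. The 10 B cell markers gave 10 of 10 below that p in the same direction, with a median of -4.87. *Igha*, *Igkc* and *Jchain*, at -0.23, -0.63 and -0.58, made up the rest. Without CD M3, HFD M2 and HFD F2, 9 of the 10 genes passed the filter and 6 were below 0.05 in the interaction, the smallest adjusted p in edgeR being 0.506. The differences in *Ighg1* were 1.67 for CDmetf against CD (SE 0.85, adjusted p = 0.963 in edgeR) and -2.81 for HFDmetf against CDmetf (SE 0.96, adjusted p = 0.569), and the first was 0.79 without CDmetf F2. *Ighm* differed by 1.28 for CDmetf against CD (SE 0.71) and by -1.38 for HFDmetf against CDmetf (SE 0.72), which became 0.45 and -0.48 without CDmetf F2. The differences of 1.49 for HFD against CD (SE 1.08) and -1.84 for HFDmetf against HFD (SE 1.05) in *Ighg2b* became 0.03 and 0.0052 without HFD M2. In pairs matched for labelled sex and number, *Ighg2b* was lower in HFDmetf than in HFD in 6 of 6. The values ran from 5.29 against 5.71 CPM (M3) to 16.2 against 196 CPM (M2). This count depends on the labels, since HFD M2 and HFD F2 had transcripts of the sex opposite to their label. The library labelled HFD F2 was at 2.98 CPM, below HFDmetf M2 at 16.2 CPM. Over the 8 genes the median difference was 0.72 for HFD against CD, -0.81 for HFDmetf against CDmetf, -0.87 for HFDmetf against HFD and 0.88 for CDmetf against CD, beside -0.0041, 0.0326, 0.0249 and -0.0025 over all genes.

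**Figure D4:**
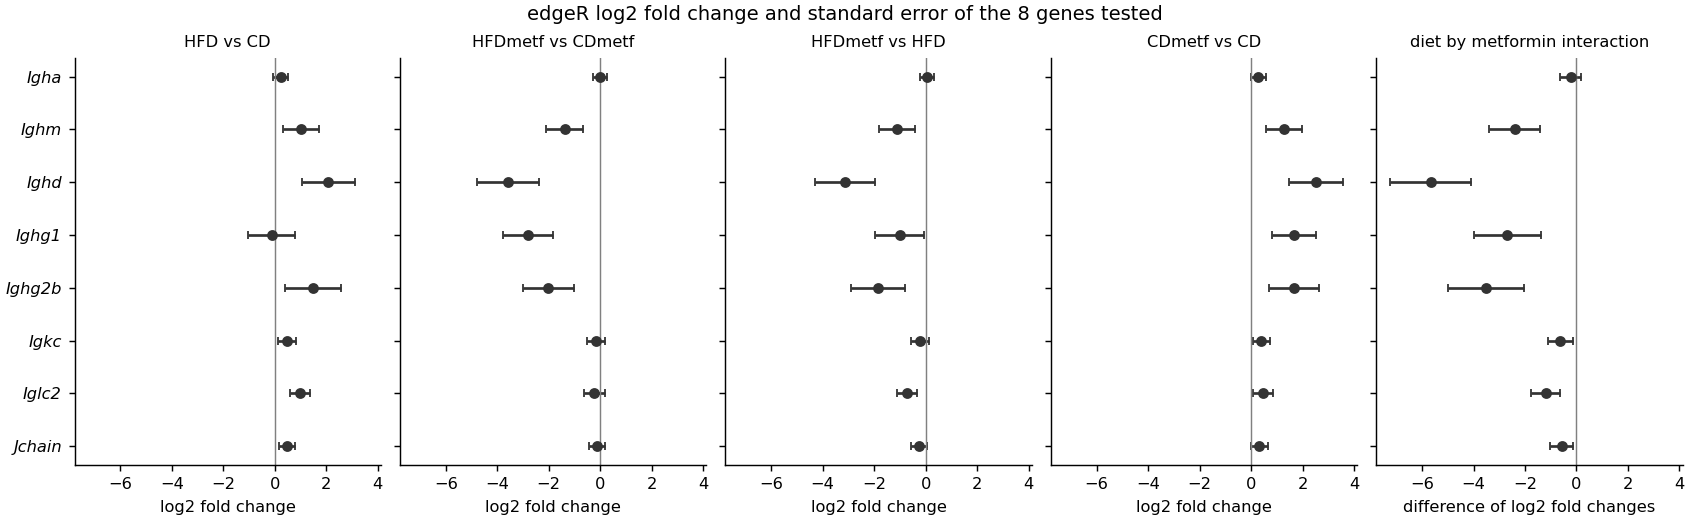
Log2 difference with its standard error from edgeR for the 8 genes that passed the filter, in the 4 comparisons and the diet by metformin interaction. The points for *Igha*, *Igkc* and *Jchain* stay near 0, and those of *Ighd* span from -5.67 in the interaction to 2.53 for CDmetf against CD.

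Light chains were almost wholly kappa. Of the reads on *Igkc* and *Iglc2*, *Igkc* took a median of 99.5%, with a low of 97.3% in HFD F1 and a high of 99.9% in HFD F2. *Iglc2* ranged from 5.65 to 9.91 CPM in CD with a median of 7.59, from 1.79 to 25.3 CPM in CDmetf with a median of 10.1, from 5.10 to 28.7 CPM in HFD with a median of 14.8, and from 4.96 to 16.2 CPM in HFDmetf with a median of 8.85. Its difference of 0.97 between HFD and CD (SE 0.40, higher in 5 of 6 pairs) had an adjusted p of 0.999 in edgeR, and the ranges overlapped. Mice have further lambda constant genes, and *Iglc3* is a near-identical copy of *Iglc2*. An aligned stretch of 60 coding bases of both, near the start of the coding sequence, is shown on the minus strand of GRCm38. It comes from the same transcripts, with the bases of *Iglc3* that differ in capitals.
Iglc2 (chr16:19198792-19198851): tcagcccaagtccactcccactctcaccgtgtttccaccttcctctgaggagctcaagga
Iglc3 (chr16:19065621-19065680): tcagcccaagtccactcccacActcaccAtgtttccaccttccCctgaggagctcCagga
Over 317 aligned bases the copies differed at 11, an identity of 96.53%, and 25.6% of the 30-base windows of *Iglc2* were shared, so its short reads are uncertain. With *Iglc1* (4.89 to 93.5 CPM, median 22.9) and *Iglc3* (0.570 to 13.3 CPM, median 5.28) added, lambda chains took between 0.907% (HFDmetf M2) and 7.24% (CDmetf M1) of light-chain reads. The make-up within lambda varied widely: *Iglc1* was 91.4% of it in HFD F2 and 20.2% in HFD F1, where *Iglc2* held 66.9%.

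The J chain holds the IgA dimer together, and the ratio of its transcript to *Igha* was set beside both the group and the replicate number. *Jchain* reads per *Igha* read were 0.194 ± 0.0229 in the 8 libraries numbered 1, 0.236 ± 0.0778 in those numbered 2 and 0.351 ± 0.0999 in those numbered 3 (SD), from 0.154 in HFD M2 to 0.467 in HFD F3. The group means lay closer together, at 0.235 ± 0.0595 in CD, 0.260 ± 0.0925 in CDmetf, 0.301 ± 0.132 in HFD and 0.245 ± 0.109 in HFDmetf (SD, n = 6). The log2 ratio differed by 0.27 for HFD against CD, -0.11 for HFDmetf against CDmetf, -0.27 for HFDmetf against HFD and 0.11 for CDmetf against CD, with exact permutation p of 0.426, 0.444, 0.343 and 0.861. *Igkc* reads per *Igha* read were 0.868 ± 0.154, 1.44 ± 0.552 and 1.22 ± 0.144 in numbers 1, 2 and 3, and reached 2.70 in HFD F2, the library with the highest *Igkc*. The difference in ratio between numbers was not tested. Over all genes, 16.9% were called for the replicate number at an adjusted p under 0.05 in edgeR, but none of the 8 constant and joining chain genes was among them, the smallest adjusted p being 0.104 for *Ighg2b*. Whether the number in the labels is the study's block in time is not stated.

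**Figure D5:**
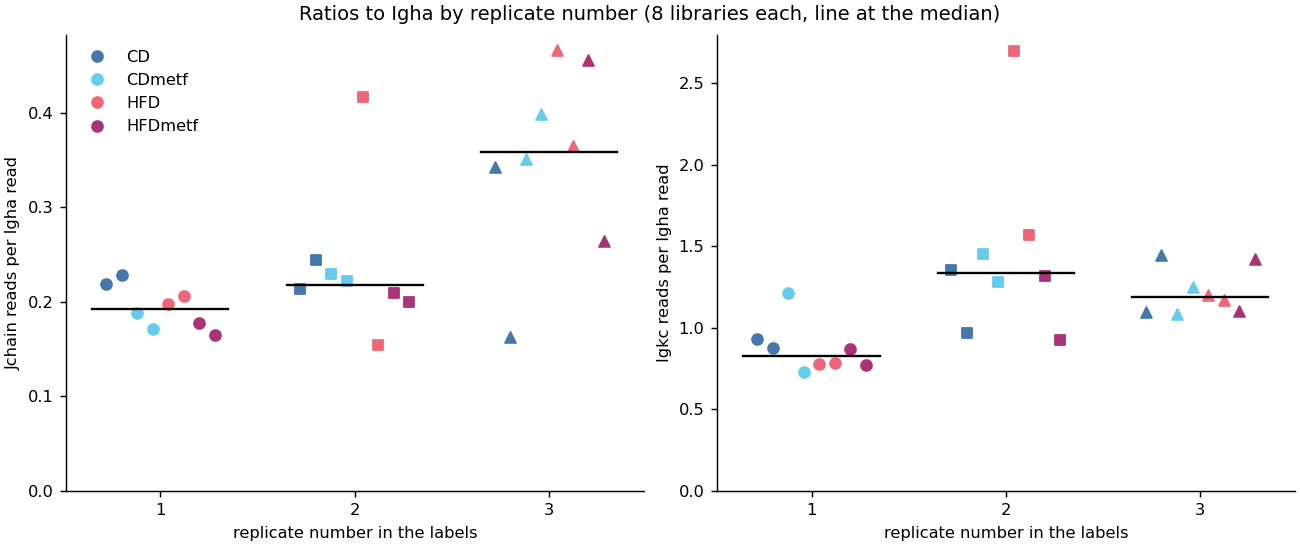
Reads of *Jchain* (left) and *Igkc* (right) per *Igha* read in the 24 libraries by replicate number in the labels, 8 libraries each, with the median as a line and colour for the group. For *Jchain* the median is 0.193 in number 1 and 0.358 in number 3, and all 4 groups are present at each number.

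No difference between the sexes passed the test in these genes. *Ighd* was 0.99 higher in females on the log2 scale (SE 0.78) and *Igha* differed by -0.28 (SE 0.20), and none of the 8 was below an unadjusted p of 0.05, against 7.09% of all genes. The adjusted p of the 8 lay between 0.738 and 0.989 in edgeR, with the labels of HFD M2 and HFD F2 taken as given.

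Genes that carry or produce these antibodies were read beside them. Of 11 antibody receptors and carriers, 9 were tested: 5 had an unadjusted p under 0.05 and were higher for HFD against CD (4.59% of all genes in either direction), 4 were higher for CDmetf against CD (4.95%), and 2 were lower and 1 higher for both HFDmetf against CDmetf (7.7%) and HFDmetf against HFD (6.72%). Their median difference was 0.53, 0.30, -0.20 and -0.07 in that order. Those in the last comparison were *Fcmr*, the IgM receptor (-3.80, SE 1.24), *Fcer2a*, the low-affinity IgE receptor of B cells (-2.42, SE 0.91), and *Fcer1g*, a signalling chain of Fc receptors (0.61, SE 0.19). *Pigr*, the carrier of IgA into the lumen, differed by -0.34 (SE 0.27) in that comparison. Of 29 genes of the intestinal IgA pathway, 18 were tested, with 5 higher for HFD against CD, 5 higher for CDmetf against CD, 2 lower for HFDmetf against CDmetf and 3 lower for HFDmetf against HFD, beside the same 4.59%, 4.95%, 7.7% and 6.72% of all genes. Among the 3 were *Tnfrsf13c*, the BAFF receptor of B cells (-2.78, SE 0.99), and *Cxcr4*, a chemokine receptor (-0.99, SE 0.45). The median difference in these 4 comparisons was 0.40, 0.31, -0.18 and -0.28. Of 15 class switch genes, 14 were tested, and 1 or none had a p under 0.05 in each comparison, with medians between -0.05 and 0.18. None of the genes in these 3 lists passed an adjusted p of 0.05 in edgeR's test. *Fcer2a* is also 1 of the 10 B cell markers, of which 8 were higher for HFD against CD, 10 higher for CDmetf against CD, 10 lower for HFDmetf against CDmetf and 9 lower for HFDmetf against HFD at an unadjusted p under 0.05, again beside 4.59%, 4.95%, 7.7% and 6.72% of all genes.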

How the data were processed

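The authors extracted total RNA from ileum, removed ribosomal RNA, prepared directional libraries and sequenced paired 100-base reads, which they trimmed with Trimmomatic 0.39 and aligned and counted with STAR 2.5.3a on GRCm38. The deposited values are raw read counts per gene, and the strand counted and the annotation release are not given in the sources used here. Symbols, positions and exon lengths came from GENCODE M21 (GRCm38), which matched all 55536 identifiers. Counts were fitted with edgeR 4.0.16 in R 4.3.3 (TMM, filterByExpr by group, quasi-likelihood F test, terms for group, sex and replicate number, 17 residual degrees of freedom, Benjamini-Hochberg over 13505 genes, threshold 0.05). Alternatives were DESeq2 1.42.0, limma-voom 3.58.1, other filters, other scaling, no replicate block and left-out libraries. Shares and ratios used raw counts, Wilson intervals of 95% and exact permutation within replicate numbers in scipy 1.17.1. The code was tested on simulated counts. Intervals cover counting error only, and 3 counts served as the limit below which a gene was taken as at the floor. P-values measure the spread between animals of 1 library each. The genes and lists were chosen with earlier results of these data known. Named genes were all 10, their lists, the 2 members of each list with the widest difference in HFDmetf against HFD, and the 5 genes most alike to *Igha*, *Ighd* and *Ighg1*, except for some items that are not reported here.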

Additional observations from a re-analysis of the deposited data

Results flagged for a closer look

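In 68 groups of 6 libraries, 9 had a highest or lowest library whose gap to its neighbour passed Dixon's 95% limit of 0.625 of the range, where chance passes about 1 group in 20. Of these, 6 were values of CDmetf F2 or HFD M2. The shares of heavy-chain reads in CDmetf F2 were 73.2% for IgA (next 91.1%), 12.6% for IgM (next 4.64%), 4.28% for IgD (next 1.35%) and 9.97% for IgG (next 3.42%), and HFD M2 had an IgG share of 11.99% (next 2.01%). In HFD M2, *Ighg2c* stood at 6.51 log2 CPM, against 1.36 in the next HFD library. CD F1 stood above the other CD libraries in its IgD share of 0.822% (next 0.307%) and its IgG share of 3.43% (next 1.15%). *Ighm* in HFDmetf F3 was 2.56 log2 CPM, below the next HFDmetf library at 4.61. The CDmetf F2, HFD M2 and CD F1 libraries were also among the 6 with the highest summed B cell markers (433, 219 and 76.2 CPM), and the part of these markers in the values was not tested. No comparison had all libraries of 1 group moving one way and all of the other the opposite way, among 102 checked.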

How the results depend on the processing

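With 6 libraries a group, and the least deep at 1829690 gene reads, differences in *Ighd* and the IgG genes rest on few reads in several libraries. Genes called at an adjusted p under 0.05 were 0 in each comparison of the groups and in the interaction under edgeR. DESeq2 called 12 for HFD against CD, 4 for CDmetf against CD, 4 in the interaction, 22 between the sexes and 16 over the 4 groups. Without a filter 15 were called between the sexes and 4 over the groups, limma-voom called 1 over the groups, and 8 were called between the sexes without HFD M2 and HFD F2, or without CD M3 as well. No constant gene or *Jchain* was called in any of these, nor without any single library.

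On the scale of log2 odds, the kappa share differed by -0.0397 for HFDmetf against CDmetf and 0.0694 for CDmetf against CD, opposite to the difference of shares. Without HFD M2 and HFD F2 the IgG share differed by -0.163 points for HFD against CD, and the summed heavy-chain CPM by 0.0150 for HFDmetf against HFD. Without CD M3 as well, these were -0.141 and 0.0150, and the kappa share for CDmetf against CD was 0.0291. The cause of these reversals was not tested.

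The other reversals were of differences near 0. For *Ighg1* in HFD against CD the value was 0.32 with limma-voom, 0.0656 with no replicate block, 0.24 without HFD M2 and F2 and 0.99 without CD M3 as well. For *Igha* in HFDmetf against CDmetf it was 0.0894 with limma-voom, 0.0066 with no replicate block and 0.0545 in the 12 libraries alone, and -0.037 in HFDmetf against HFD with limma-voom. *Jchain* in HFDmetf against CDmetf was 0.0037 with limma-voom. *Igkc* in HFDmetf against HFD was 0.11 without HFD M2 and F2 and 0.10 without CD M3 as well. Between the sexes, *Ighg1* was 0.0323 with limma-voom, 0.13 with no replicate block and 0.39 without the 3 libraries, *Igkc* 0.0052 with limma-voom, and *Jchain* 0.0195 without a filter and 0.094 with limma-voom.

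Leaving out 1 library in turn, the ranges that crossed 0, and the counts of genes that moved, were as follows. The IgG share in HFD against CD ran from -0.211 (without HFD M2) to 2.13, the kappa share from -0.0774 to 0.0780 in CDmetf against CD and from -0.0402 to 0.115 in HFDmetf against CDmetf. The log2 *Jchain* to *Igha* ratio ran from -0.0258 to 0.23 and from -0.31 to 0.0284 in these, and the summed heavy-chain CPM from -0.29 to 0.14 in HFDmetf against CDmetf and from -0.20 to 0.11 in HFDmetf against HFD. *Igha* ran from -0.22 to 0.19 and from -0.12 to 0.14 in the same 2 comparisons. *Ighg1* ran from -1.57 to 0.66 in HFD against CD and from -1.80 to 0.71 (without HFD F1) in HFDmetf against HFD. *Ighg2b* in HFDmetf against HFD ran from -2.26 to 0.0052 (without HFD M2). In HFDmetf against CDmetf, *Igkc* ran from -0.38 to 0.17, *Iglc2* from -0.43 to 0.26 and *Jchain* from -0.32 to 0.0329, and *Iglc2* in CDmetf against CD from -0.0419 to 0.66. Between the sexes the ranges were -0.60 to 0.38 for *Ighg1*, -0.26 to 0.87 for *Ighg2b*, -0.20 to 0.29 for *Ighm*, -0.19 to 0.0279 for *Igkc* and -0.11 to 0.10 for *Jchain*, with 1 to 8 genes called (8 without HFD M2), and 0 to 1 over the 4 groups. Of the single-gene values, 444 of the fits with all or most libraries and 1091 of those with 1 left out kept their direction and their side of the threshold, while 55 results moved by over 1.5 times without crossing 0 in at least 1 such fit.

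The replicate block was kept because the study's methods use one. Deviations of same-numbered libraries had a mean correlation of 0.258 over 18 pairs (15 over 0.1, lowest -0.0536) and those of different numbers -0.129 over 36 pairs (4 over 0.1). Deviations were taken from each group's mean, so the negative value largely follows from the positive one and is no separate observation. Same-numbered libraries thus tended to deviate together, but not in every pair, and no label says what the number marks. With no replicate block, edgeR called 0 genes in each comparison and 1 between the sexes, and the exact permutation p of the IgG share in HFDmetf against CDmetf was 0.0476 (0.622 adjusted). The filter with all model terms, which kept *Ighg2c* and *Ighg3*, and the fit without CD M3 were chosen after the data were seen.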

Other observations

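With a wider filter on low counts, which let all 10 genes be tested, *Ighg2c* differed by 2.21 for HFD against CD, -2.90 for HFDmetf against CDmetf, -3.16 for HFDmetf against HFD and -5.11 in the interaction (adjusted p = 0.708 in edgeR). *Ighg3* differed by 2.31 for CDmetf against CD, -2.34 for HFDmetf against CDmetf and -3.27 in the interaction (adjusted p = 0.799 in edgeR).

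Among 13399 genes tested that are not antibody genes, those whose log2 CPM ranked the 24 libraries most like *Ighd* included *Cd52* (Spearman's rho 0.89), *Itgb7* (0.87), *Pax5* (0.87) and *Tnfrsf13c* (0.86), all known in lymphocytes. Those most like *Igha* were *Pigt* (0.71), *Tmem104* (0.70), *Med16* (0.70), *Rgp1* (0.69) and *Cdc42se1* (0.69), and those most like *Ighg1* were *Kat6a* (0.75), *Hivep1* (0.73), *Hivep2* (0.72), *Pskh1* (0.72) and *Atf7ip* (0.71). Among the constant genes themselves, *Igha* and *Igkc* gave a rho of 0.73, *Ighm* and *Ighd* 0.77, *Ighm* and *Ighg2b* 0.73, and *Igha* and *Ighd* 0.15. These are the highest of many correlations over the same libraries and are given as a description.

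*Ighe*, the constant region of IgE, had 56 reads in all 24 libraries, 0 in 12 of them and a highest count of 20 in CDmetf F3. *Iglc4* had 9 reads, with 0 in 19 libraries.

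Marker sums of other cell types spanned 9.73 to 76.8 CPM for T cells (highest in CDmetf F2), 28.0 to 91.7 CPM for the germinal centre B cell list (highest in HFD M3), 3889 to 18637 CPM for epithelium, 157 to 4627 CPM for the distal small intestine (lowest in HFD M3) and 960 to 3386 CPM for smooth muscle. The germinal centre sum had a median of 42.7 CPM beside 20.8 CPM for the B cell sum, which was 16.7 CPM in HFD M3. Whether the germinal centre sum came from B cells was not tested, so it is no measure of germinal centres. In HFDmetf against HFD, the widest differences were -0.65 (SE 0.36) for *Pou2af1* and -0.53 (SE 0.31) for *Prdm1* among plasma cell markers, -1.04 (SE 0.39) for *Rgs13* and -0.48 (SE 0.23) for *Fas* among germinal centre markers, and -0.77 (SE 0.56) for *Cd3e* among T cell markers. None passed an adjusted p of 0.05 in edgeR.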
